A study of Mus musculus with 24 samples.

Results

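Proline metabolism was examined in mice that carry 1 copy of Prodh, the gene of proline dehydrogenase. The set was chosen by gene symbol and held 8 genes that make, break down or carry proline: Prodh, Aldh4a1, Prodh2, Aldh18a1, Pycr1, Oat, Slc6a7 and Slc6a20a. Of these, 7 had a value, each from 1 probe set, among 18820 genes with a value of their own. Pycr1 had no probe set annotated to it alone and was not analysed here. Of the 7, only Prodh lies in the deletion. Each member is a single gene measured once per mouse, so the 7 values of a mouse come from the same RNA.

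The tissue was the prefrontal cortex of males aged 8 weeks on the C57BL6/J background. The 2 groups were 12 mice heterozygous for the Df(16)A deletion, written Df(16)A+/- here (Df16(A)+/- in the sample labels) and also called mutants below, and 12 wild-type littermates. An array stands for 1 mouse throughout, although the labels only number the arrays of a genotype as replicates and do not call each a separate animal. The deletion removes 1 copy of a stretch of mouse chromosome 16 that corresponds to the human 22q11.2 microdeletion. It is carried by every cell and takes many neighbouring genes along with Prodh, so an effect of Prodh on the other members cannot be told apart from an effect of its neighbours. Values are expression values on the log2 scale, made by the authors with RMA (robust multi-array average, which summarises the probes of a probe set), so that a difference of 1 means a factor of 2. A value reflects how brightly a probe set hybridises, and values of different genes were therefore not read as relative amounts of RNA. Levels of different genes were set beside each other to mark dim genes and to check the tissue by its markers.

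Proline is broken down in mitochondria. Proline dehydrogenase, the product of Prodh, oxidises it to pyrroline-5-carboxylate and passes the electrons to the respiratory chain, and the dehydrogenase encoded by Aldh4a1 turns that intermediate into glutamate. In the other direction, the synthase encoded by Aldh18a1 makes pyrroline-5-carboxylate from glutamate, and reductases of the Pycr family complete proline. Ornithine aminotransferase (Oat) joins the same intermediate to ornithine. In the brain, proline is taken up into glutamatergic terminals by the transporter encoded by Slc6a7, and loss of PRODH in humans raises proline in the blood.

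The 250 bases before the annotated start of Prodh and of Aldh4a1, the enzymes of the consecutive steps from proline to glutamate, are shown because mutants have 1 copy of the first stretch and 2 copies of the second. Both are from RefSeq on GRCm38.p6, at chr16:18089191-18089440 on the minus strand for Prodh and at chr4:139622644-139622893 on the plus strand for Aldh4a1. Capitals mark GGGCGTG, a core of the motif bound by Krüppel-like factors, in Prodh, and CCAAT, which reads ATTGG on the printed strand, in Aldh4a1.
Prodh: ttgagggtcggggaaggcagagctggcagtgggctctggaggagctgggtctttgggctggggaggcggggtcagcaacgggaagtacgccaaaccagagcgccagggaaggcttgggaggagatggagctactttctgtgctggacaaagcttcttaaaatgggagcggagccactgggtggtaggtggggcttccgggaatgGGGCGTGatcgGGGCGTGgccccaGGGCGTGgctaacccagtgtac
Aldh4a1: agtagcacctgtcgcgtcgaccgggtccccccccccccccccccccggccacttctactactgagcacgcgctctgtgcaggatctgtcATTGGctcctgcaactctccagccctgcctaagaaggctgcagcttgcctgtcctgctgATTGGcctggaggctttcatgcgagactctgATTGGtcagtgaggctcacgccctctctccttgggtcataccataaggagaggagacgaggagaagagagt
Searched on both strands, the Prodh window held 3 copies of GGGCGTG, a motif picked after the sequence was read. At least 1 copy was found in 7.55% of 32851 windows of the same kind and at least 3 in 0.213%. The Prodh window held no GC box (GGGCGG, in 32.7% of windows), no CCAAT (33.8%), no TATAAA (12.4%), no CACGTG (6.02%) and no TGATGNAAT (0.816%), the letters of an element bound by ATF4. The Aldh4a1 window held 3 copies of CCAAT, and 2.79% of windows held 3 or more; it also held 1 copy of GGGCGTG. The motifs GGGCGG and GGGCGTG share their first letters but cannot occupy the same start. These matches describe the letters only.

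The arrays resembled each other, with correlations across genes between 0.994 and 0.997. The deleted segment was taken as the measured genes from Dgcr2 to Hira in the RefSeq order. At an adjusted p under 0.05, 21 of its 27 genes passed as lower in mutants and none as higher, which checks the genotype labels. Over all 18820 genes, 0.228% passed as lower. The genes of the segment that did not pass were Tssk1, Tssk2, Gsc2, Vpreb2, Mir185 and Tbx1, with wild-type means from 5.10 to 7.77. Of these, all but Gsc2 (log2 fold change 0.06) lay below 0. The neuronal markers (9 genes, among them Snap25, Syt1 and Slc17a7) averaged 12.56 to 12.66 per mouse in mutants and 12.55 to 12.64 in wild types. Markers of liver and kidney (5 genes, with Alb and Ttr) averaged 5.21 to 5.51 in mutants and 5.24 to 5.74 in wild types. Ttr is also in the list of choroid plexus markers and varied the most of the 5, with an SD of 0.68 in wild types and 0.23 in mutants. The mutant arrays of replicates 5, 9 and 10 stood apart from the rest in an earlier look at these data, and values without them are given where they bear on a result. The values that set these arrays apart are not shown here, and no wild-type array was left out beside them.

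Prodh was the one member that passed the test between genotypes. Its level in the 12 mutants ranged from 7.27 to 7.68 with a median of 7.45, against 8.02 to 8.47 with a median of 8.17 in the 12 wild types. The genotypes did not overlap: the highest mutant lay 0.34 below the lowest wild type. Mutants averaged 7.49 ± 0.13 and wild types 8.20 ± 0.13 (SD, 12 mice each), a log2 fold change of -0.71 ± 0.05 (SE), with a 95% confidence interval from -0.82 to -0.60 (limma, adjusted p = 4.46e-10). Mutants thus had 61.1% of the wild-type signal, with an interval from 56.7% to 65.8%. Of all 18820 genes, 0.228% passed the threshold and were lower in mutants, and in 0.106% all mutants lay below all wild types.

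**Figure D1:**
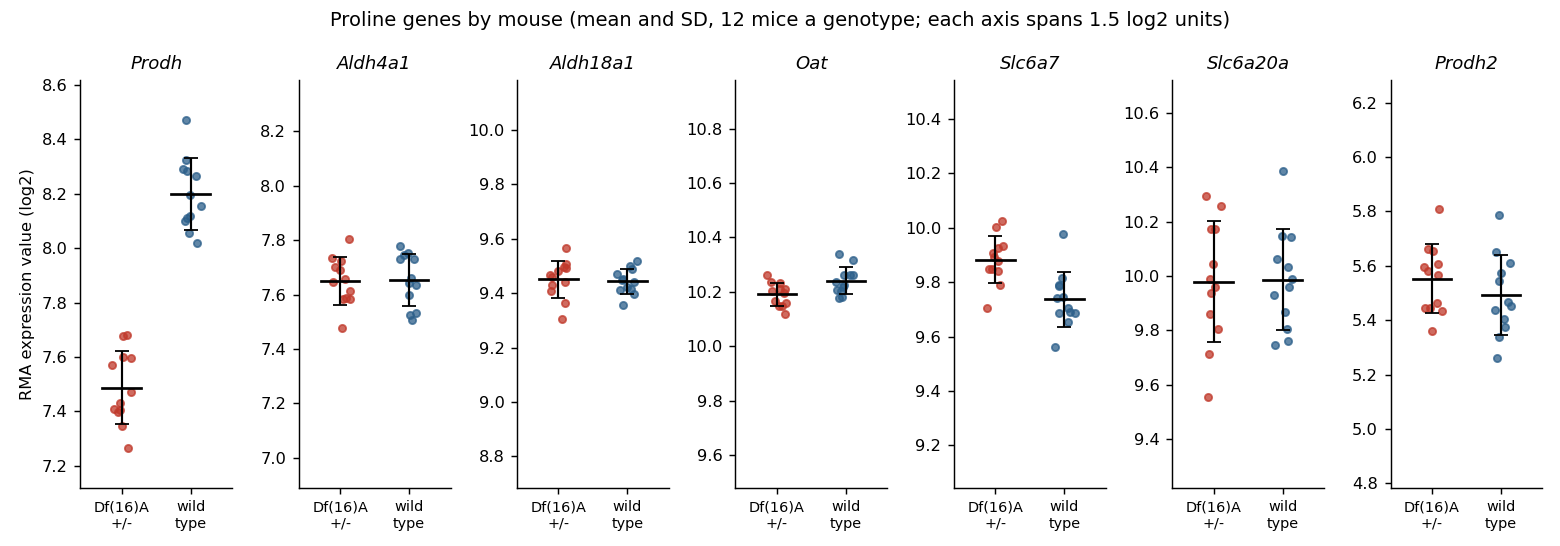
RMA expression value (log2) of the 7 measured proline genes in each mouse, with Df(16)A+/- mice in red left of wild types in blue; bars are the mean and SD of 12 mice, and each panel spans the same range of log2 units. Prodh separates the genotypes completely, 11 of 12 mutants lie above the wild-type median of Slc6a7 without passing the test, and the genotypes overlap in every gene but Prodh.

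The fall of Prodh was measured on both sides of a split of the running array number. The labels number the arrays from 1 to 24, and the split after array 12 is not a batch that they name. Over arrays 1 to 12 (7 mutants, 5 wild types) the log2 fold change was -0.75 ± 0.06 (SE), and over arrays 13 to 24 (5 mutants, 7 wild types) it was -0.64 ± 0.07. The difference, arrays 13 to 24 minus arrays 1 to 12, was 0.11 ± 0.10 (limma interaction term, unadjusted p = 0.271, adjusted p = 0.885), and none of the 18820 genes passed this test, while 1105 had an unadjusted p under 0.05. Without the 3 arrays that stood apart, the log2 fold change of Prodh was -0.72 ± 0.06. It ranged from -0.73 to -0.69 when each of the 24 mice was left out in turn.

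**Figure D2:**
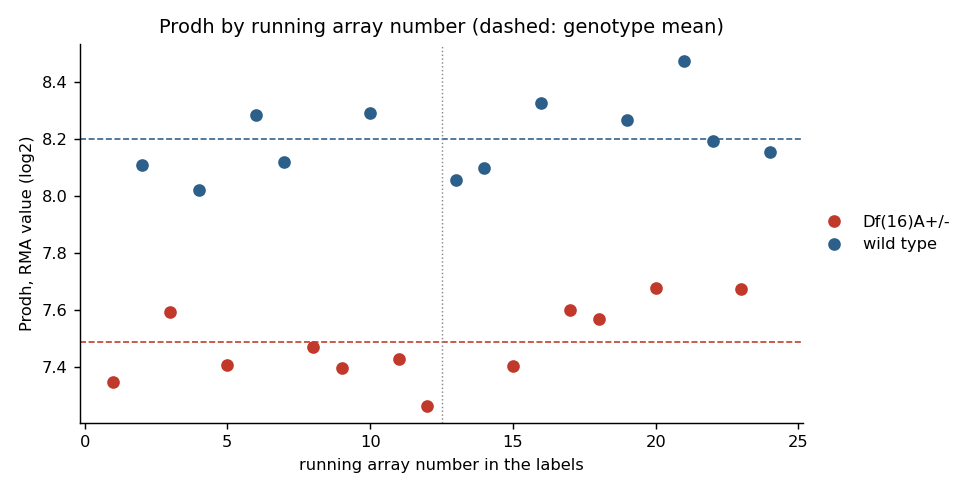
Prodh expression value (log2) against the running array number in the labels, for Df(16)A+/- mice (red) and wild types (blue); dashed lines are the genotype means and the dotted line separates arrays 1 to 12 from 13 to 24. Every mutant lies below 7.7 and every wild type above 8, on both sides of the dotted line.

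Among the deleted genes that passed as lower, Prodh lay in the middle by the size of its change. These 21 genes had log2 fold changes from -0.88 to -0.27 with a median of -0.68. Of them, 9 fell by more than Prodh and 11 by less. The smallest falls were those of Gnb1l (-0.27) and Cdc45 (-0.30), whose wild-type means were 6.26 and 6.25. All genes of the segment that did not pass had smaller changes than Prodh. Of the other deleted genes that act in mitochondria, the citrate carrier Slc25a1 had a log2 fold change of -0.88 ± 0.03 (SE), the ribosomal protein gene Mrpl40 -0.76 ± 0.03 and the thioredoxin reductase Txnrd2 -0.64 ± 0.04.

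Aldh4a1, the next enzyme of the breakdown route, did not pass the test. It ranged from 7.48 to 7.80 with a median of 7.65 in mutants and from 7.51 to 7.78 with a median of 7.65 in wild types, and 6 of 12 mutants lay above the wild-type median. Its log2 fold change was -0.0032 ± 0.04 (SE), with a 95% interval from -0.08 to 0.07 (limma, adjusted p = 0.986). The interval corresponds to 94.5% to 105% of the wild-type signal, and the fold change of Prodh lies outside it.

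Prodh2, which encodes a related dehydrogenase that acts on hydroxyproline and is known mainly from liver and kidney, ranged from 5.36 to 5.81 with a median of 5.57 in mutants and from 5.26 to 5.79 with a median of 5.46 in wild types. The genotypes overlapped, with 11 of 12 mutants inside the wild-type range. The log2 fold change was 0.06 ± 0.05 (SE, adjusted p = 0.699). In arrays 1 to 12 it was -0.06 ± 0.07, and in arrays 13 to 24 it was 0.16 ± 0.07 (interaction, unadjusted p = 0.0454, adjusted p = 0.813). With its mean of 5.52 over all mice, Prodh2 lay just above 5.45, the level below which the dimmest 25% of genes were left out in an alternative fit, and all 7 measured members passed that filter. Its means of 5.55 in mutants and 5.49 in wild types lay near those of the liver and kidney markers. These averaged 5.21 to 5.51 per mouse in mutants and 5.24 to 5.74 in wild types. Whether Prodh2 was expressed was not tested, so its values do not show that it was unchanged.

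Of the genes that make proline or its precursor, Aldh18a1, the synthase of pyrroline-5-carboxylate, varied little. It ranged from 9.30 to 9.57 with a median of 9.46 in mutants and from 9.36 to 9.52 with a median of 9.45 in wild types. The log2 fold change was 0.0070 ± 0.03 (SE, adjusted p = 0.943), with an interval from 96.8% to 104% of the wild-type signal. Oat ranged from 10.12 to 10.26 with a median of 10.20 in mutants and from 10.18 to 10.34 with a median of 10.23 in wild types. Of the mutants 9 lay below the wild-type median and 5 below the lowest wild type. Its log2 fold change was -0.05 ± 0.02 (SE), which did not pass the test (unadjusted p = 0.0338, adjusted p = 0.374). Oat was also the steadiest member, with an SD within genotypes of 0.047, smaller than that of all but 4.17% of genes.

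Slc6a7, the proline transporter of glutamatergic terminals, had the second smallest p of the 7 genes and the opposite sign to Prodh, without passing the threshold. It ranged from 9.71 to 10.03 with a median of 9.88 in mutants and from 9.56 to 9.98 with a median of 9.72 in wild types. The genotypes overlapped, but 11 of 12 mutants lay above the wild-type median. Mutants averaged 9.88 ± 0.09 and wild types 9.74 ± 0.10 (SD, 12 mice each), a log2 fold change of 0.15 ± 0.04 (SE), with an interval from 0.07 to 0.23 and an unadjusted p of 0.000907 (limma, adjusted p = 0.0828). For comparison, 0.531% of all genes were higher in mutants at the adjusted threshold and 11.9% had an unadjusted p under 0.05 in either direction. In arrays 1 to 12 the log2 fold change of Slc6a7 was 0.15 ± 0.05, and in arrays 13 to 24 it was 0.17 ± 0.06. The call depended on single mice: without the wild type of replicate 10, the highest of its group, the value was 0.17 and the adjusted p 0.0123, and without the mutant of replicate 1, the lowest of its group, 0.16 and 0.0346. Without the 3 arrays that stood apart it was 0.14 with an adjusted p of 0.233.

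Within genotypes, Slc6a7 and the mean of the endothelial markers had a negative correlation that passed for ranks only (Pearson r = -0.54 over 24 mice after each genotype's mean was subtracted, permutation p = 0.00394, Spearman rho = -0.61, permutation p = 0.0019). Over the 49 relations of 7 genes and 7 marker lists the adjusted values were 0.0758 for Pearson and 0.0465 for Spearman, and r was -0.58 without the 2 mice farthest from the median of Slc6a7. Within mutants r was -0.70 and within wild types -0.40. The relation was not particular to endothelium: with the astrocyte markers r was -0.47 and rho -0.55 (permutation, adjusted p = 0.176 and 0.12). With the meningeal markers r was -0.31 and rho -0.42 (adjusted p = 0.54 and 0.33). With the other lists r was -0.20 (microglia), -0.15 (oligodendrocytes), 0.03 (neurons) and 0.07 (choroid plexus). The mean of the 5 endothelial markers ranged from 8.03 to 8.46 per mouse in mutants and from 8.17 to 8.34 in wild types, with a median log2 fold change of -0.01, and no marker passed. The part of these cells in the Slc6a7 values was not tested.

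Slc6a20a, a transporter of proline and related imino acids known from the coverings of the brain and the choroid plexus, varied more between mice than any other measured member, and its genotypes overlapped. It ranged from 9.56 to 10.29 with a median of 9.97 in mutants and from 9.75 to 10.39 with a median of 9.98 in wild types. Its log2 fold change was -0.0063 ± 0.08 (SE, adjusted p = 0.986), and its interval, 88.9% to 112% of the wild-type signal, was the widest of the 7. The SD within genotypes was 0.21, larger than that of 89.9% of all genes. The log2 fold change of Slc6a20a was 0.14 ± 0.08 in arrays 1 to 12 and -0.17 ± 0.12 in arrays 13 to 24 (interaction, unadjusted p = 0.0506, adjusted p = 0.813).

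These differences between mice ran with markers of the meninges. After each genotype's mean was subtracted, Slc6a20a and the mean of 7 meningeal and fibroblast markers were correlated over 24 mice, with Pearson r = 0.82 (permutation p = 1e-05, the smallest that the permutations can give) and Spearman rho = 0.84 (permutation p = 2e-05). The values adjusted over 49 relations were 0.00049 and 0.00098. The correlation was 0.93 within mutants and 0.76 within wild types, and 0.75 without the 2 mice farthest from the median of Slc6a20a. Of the single markers, Slc22a6, an organic anion transporter, reached r = 0.89 and Dcn, the proteoglycan decorin, 0.83, while Col1a1 was lowest with 0.37. The marker mean ranged from 7.51 to 8.04 per mouse in mutants and from 7.58 to 8.25 in wild types. None of the 7 markers passed the test between genotypes, although all 7 had log2 fold changes below 0, with a median of -0.04. Over all genes 51% lay below 0, and the 7 markers come from the same mice, so their signs are not independent. In bulk tissue, fewer cells of a type and less RNA per cell cannot be told apart. No other relation of the 49 passed for Pearson r. Slc6a20a and the choroid plexus markers had r = 0.54 (permutation p = 0.00464, adjusted p = 0.0758), with 0.74 within mutants and 0.54 within wild types. That r was 0.29 without the 2 farthest mice. With the astrocyte markers Slc6a20a had r = 0.53 (permutation, adjusted p = 0.118), with the endothelial markers 0.46 (0.248) and with the oligodendrocyte markers -0.50 (0.148). Without the 2 farthest mice these were 0.26, 0.38 and -0.23.

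**Figure D3:**
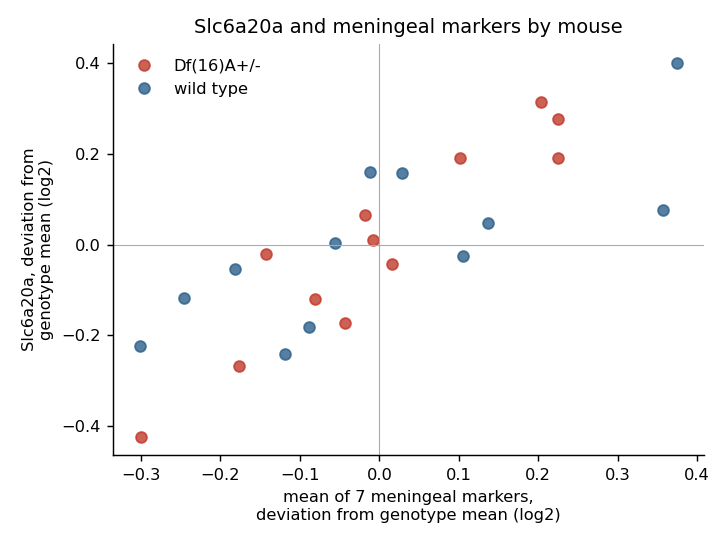
Slc6a20a (vertical axis) against the mean of 7 meningeal and fibroblast markers (horizontal axis) in each mouse, both as deviations from the mean of the mouse's genotype on the log2 scale, for Df(16)A+/- mice (red) and wild types (blue). Mice of both genotypes fall along the same rising band, with r = 0.82 over the 24 mice.

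Pairs of members were compared from mouse to mouse with the genotype means subtracted. Of 21 pairs, none had a correlation that passed after adjustment, and 3 had an unadjusted p under 0.05. The pair with the highest value was Aldh4a1 with Oat (Pearson r = 0.56, permutation p = 0.00616, adjusted p = 0.129, Spearman rho = 0.54, permutation p = 0.01, adjusted p = 0.211). For this pair r was 0.53 without the 2 mice farthest from the median of Aldh4a1, 0.42 within mutants and 0.67 within wild types. Prodh with Slc6a7 had r = 0.47 (permutation p = 0.0231, adjusted p = 0.243, Spearman rho = 0.35, permutation p = 0.0977), which dropped to 0.20 without the 2 mice farthest from the median of Prodh. Prodh with Aldh18a1 had r = 0.42 (permutation p = 0.0445, adjusted p = 0.311, Spearman rho = 0.38, permutation p = 0.0709), which was 0.29 without the 2 farthest mice. Prodh with Aldh4a1, the consecutive enzymes, had r = -0.03 (permutation p = 0.889, Spearman rho = 0.02).

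Across the 24 mice as measured, which includes the gap between genotypes, the genes whose pattern was most like that of Prodh were Dgcr2 (Pearson r = 0.95), Tango2 (0.95), Rtn4r (0.94), Ufd1 (0.94) and 2510002D24Rik (0.93), all of the deleted segment. With the genotype means subtracted, the 5 most alike were Cacna1h, a T-type calcium channel (r = 0.74), Atp10a, a lipid flippase (0.72), Cmip (0.72), Mettl17, a mitochondrial protein (0.72), and Ksr1, a scaffold of the MAP kinase cascade (0.71). These are the highest over all genes, whose 99th percentile was 0.53, and they share the arrays and their normalization.

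By the same measure, Slc6a20a was most like Colec12, a scavenger receptor (r = 0.91), Slc13a4, a sulfate transporter (0.91), and Slc13a3, a dicarboxylate transporter (0.89). Slc6a7 was most like Slit1, a guidance ligand (0.84), Ap3d1, an adaptor subunit (0.77), and Slc25a22, a mitochondrial glutamate carrier (0.77). Aldh4a1 was most like Zfp524 (0.83), Pcdhb10, a protocadherin (0.75), and Stip1, a co-chaperone (0.73). Oat was most like Ddx20, an RNA helicase (0.78), Etf1, the translation release factor (0.78), and Vps29, a retromer subunit (0.74). Aldh18a1 was most like Sdc4, a syndecan (0.69), Dpy19l3 (0.68) and Atp6v0e2, a proton pump subunit (0.68, but Spearman rho = 0.42). Prodh2 was most like Sim2, a transcription factor (0.77), Capn9, a calpain (0.71), and Gap43, a growth cone protein (0.71). These values are over 24 mice and describe likeness only.

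In the wider pathway no gene passed the test. The 9 lists held 78 measured genes other than the members, with a median log2 fold change of -0.01 against -0.0014 over all genes, and 43 of the 78 lay below 0 against 51% of all genes. At an unadjusted p under 0.05 there were 8 of 78, against 11.9% of all genes. The values lay between -0.13 and 0.19. Only 0.76% of all genes passed in either direction. Some listed genes were dim, with means in both genotypes below 5.45, the level that bounds the dimmest 25% of genes. These were Otc, Arg1, Slc6a18, Slc6a19, Slc6a20b, Slc36a3, Slc38a4, Agxt and Xpnpep2. Whether they were expressed was not tested, so their values do not show that they were unchanged.

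**Figure D4:**
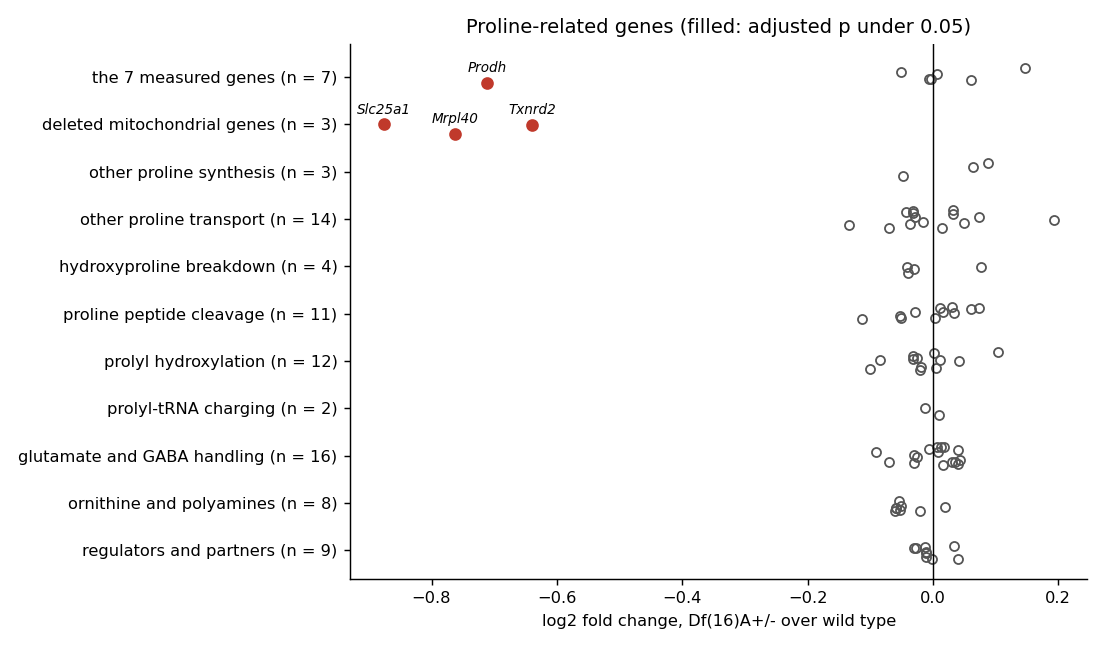
Log2 fold change of Df(16)A+/- over wild type for the 7 measured members, the 3 deleted mitochondrial genes and the genes of 9 wider lists; each point is a gene, filled where its adjusted p was under 0.05. Prodh, Slc25a1, Mrpl40 and Txnrd2 lie between -0.88 and -0.64, and all open points lie between -0.13 and 0.19.

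Of 3 other genes of proline synthesis and of the making or use of ornithine, none passed. Pycrl, a pyrroline-5-carboxylate reductase, had -0.05 ± 0.04 (SE), Otc, the ornithine carbamoyltransferase of the urea cycle, 0.09 ± 0.05 and Arg1, an arginase, 0.06 ± 0.06. Of 14 other carriers that accept proline or related amino acids none passed, with a median of -0.02. The extremes were Slc6a20b, the paralogue of Slc6a20a, with 0.19 ± 0.07 (unadjusted p = 0.0116, adjusted p = 0.266), and Slc1a5, a neutral amino acid exchanger, with -0.13 ± 0.06 (adjusted p = 0.415). Slc6a20b was dim, at 5.30 in mutants and 5.11 in wild types on average. Slc38a1, a glutamine transporter, had -0.03 ± 0.02 and Slc6a18 -0.07 ± 0.06.

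Genes on the glutamate side of the route showed no change that passed. Of 16 genes of glutamate, glutathione and GABA handling the median was 0.01. The smallest p was that of Gclc, the catalytic subunit of glutamate-cysteine ligase, with -0.07 ± 0.02 (SE, unadjusted p = 0.00233, adjusted p = 0.144), followed by Gss, the glutathione synthetase, with -0.09 ± 0.04. Gad1, which makes GABA from glutamate, had 0.04 ± 0.03 and Got1, the cytosolic aspartate aminotransferase, -0.03 ± 0.02. Of 8 genes of ornithine and polyamines 7 lay below 0, against 51% of all genes, with a median of -0.05 and none past the test. Sms, the spermine synthase, had -0.05 ± 0.03, Srm, the spermidine synthase, -0.05 ± 0.03, Azin1, the antizyme inhibitor, -0.06 ± 0.04, and Slc25a15, the mitochondrial ornithine carrier, -0.05 ± 0.04.

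Among the other uses of proline, 4 genes of hydroxyproline breakdown had a median of -0.03, with Got2, the mitochondrial aspartate aminotransferase, at -0.04 ± 0.02 (SE, adjusted p = 0.373), Grhpr at -0.03 ± 0.03, Agxt at 0.08 ± 0.10 and Hoga1 at -0.04 ± 0.06. Of 11 peptidases that cut beside proline, the median was 0.01; Prcp, the prolylcarboxypeptidase, had -0.11 ± 0.04 (unadjusted p = 0.00422, adjusted p = 0.177), Prep 0.03 ± 0.02, Pepd, which frees proline from dipeptides, -0.05 ± 0.04 and Dpp4 0.07 ± 0.06. The 12 prolyl hydroxylase genes had a median of -0.02. Egln1, the oxygen sensor, had -0.10 ± 0.03 (adjusted p = 0.199), P3h3 0.10 ± 0.04 (adjusted p = 0.258), P4ha1, a collagen prolyl hydroxylase, -0.08 ± 0.05 and P4hb -0.03 ± 0.03. The prolyl-tRNA synthetase genes Eprs and Pars2 had 0.0090 ± 0.03 and -0.01 ± 0.05. Of 9 regulators and partners of proline oxidation, the median was -0.01; Sirt3, a mitochondrial deacetylase, had 0.03 ± 0.03, Glud1, the glutamate dehydrogenase, -0.03 ± 0.03, Hif1a -0.03 ± 0.03 and Myc 0.04 ± 0.07.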

How the data were processed

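The authors deposited log2 expression values, 1 per probe set and array; per the submitters' processing notes they were made with RMA, with no version; the sources used here name neither its steps nor a build. Per the labels, 100 ng of total RNA (miRNeasy kit) was labelled as whole-transcript sense cDNA. The log2 scale was read from the values (1.82 to 14.49). No detection calls were used, and the number of arrays limits the precision.

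Of 35556 probe sets, 21218 carried 1 gene symbol; the one with the highest mean stood for its gene (18820 genes, 18790 matched to RefSeq by Entrez identifier). Genotypes were compared with limma 3.58.1 in R 4.3.3 (lmFit and eBayes, genotype only), adjusted over 18820 genes by Benjamini-Hochberg with a threshold of 0.05; SE and 95% intervals are moderated. The step was tested on simulated data. Correlations used 100000 two-sided permutations within genotypes (Python 3.11.15). Each array was counted as 1 mouse on its replicate number alone, so the p-values measure the spread between these samples, which may be technical.

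Members and lists were chosen with earlier results of these data known. Named are all members, up to 4 genes of each list by smallest p, the 3 deleted mitochondrial genes and the genes most like a member. The alternatives are in the closing section.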

Additional observations from a re-analysis of the deposited data

How the results depend on the processing

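Prodh stayed lower and past the threshold in all 12 alternative settings (log2 fold change -0.75 to -0.64) and with each mouse left out (-0.73 to -0.69); no other member passed as lower in any of them, and no gene of the wider lists passed in any. With the replicate number as a block Prodh had -0.71 (adjusted p = 6.03e-07) and Slc6a7 0.15 (adjusted p = 0.0907), and the block changed no call among the members and the wider lists; over all 18820 genes it gave 37 lower and 110 higher. After each genotype's mean was subtracted, same-numbered mice correlated by -0.08 to 0.31, above 0.1 in 6 of 12 pairs. Their median was 0.10, against -0.01 for mice of other numbers. Of the mutants 2 of 12 were most like the wild type of their own number, and of the wild types 3 of 12 were most like their mutant. The labels name no pairing, so the numbers were not taken as pairs in the main fit. The count of members higher in mutants was 0; it was 1, Slc6a7, with trended robust variances (0.15, adjusted p = 0.0336) and with the split of the arrays at number 12 as a term (0.16, adjusted p = 0.0427), and 0 to 1 with each mouse left out. The adjusted p of Slc6a7 ranged from 0.0123 to 0.414 over all alternatives; the cause was not tested. Values near 0 changed sign without passing. For Aldh4a1 these were 0.0111 with quantile normalization, 0.0106 with median centring, 0.0057 with array weights, 0.0016 over arrays 1 to 12 and 0.0117 without the 3 arrays that stood apart. For Slc6a20a they were 0.0058, 0.0075, 0.0064, 0.14 and 0.0150 in the same settings. Aldh18a1 had -0.0116 over arrays 1 to 12 and -0.0109 without the 3 arrays, and Prodh2 -0.0560 over arrays 1 to 12. With each mouse left out Aldh4a1 ranged from -0.0171 to 0.0126, Slc6a20a from -0.0347 to 0.0322 and Aldh18a1 from -0.0034 to 0.0203. Over all 18820 genes, 43 passed as lower and 100 as higher in mutants; the counts were 66 and 116 with trended robust variances, 66 and 104 without the dimmest 25% of genes, 35 and 77 with all probe sets tested, 23 and 35 over arrays 1 to 12, and 22 and 35 over arrays 13 to 24, with 12 mice each. The difference in Prodh between arrays 13 to 24 and arrays 1 to 12 was 0.09 to 0.12 in 5 alternatives.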
